A study of Zea mays with 8 samples.

Results

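The genes mn1, sweet4c and mrp1 belong to the basal endosperm transfer layer of the maize kernel. They were chosen by gene ID (Zm00001d003776, Zm00001d015912 and Zm00001d010889), and all 3 were found among the 37965 genes of the deposited count table. Endosperm was sampled at 19 days after pollination, in a form enriched in the EAS, the cell layers of the endosperm that face the scutellum of the embryo. One group had both KIL1 and KIL2 knocked out (4 libraries), and the other was wild type (4 libraries), and both were in the A188 line. KIL1 and KIL2 are transcription factors of the NAC family. The labels do not give the mutant alleles or how many independent lines carry them. They also do not say whether libraries of a genotype came from separate plants or ears, so the p-values below measure the spread between these libraries, which may be technical. Totals were 47143888 to 65625013 counts per library in the knockout and 58330218 to 80577963 in wild type. Transcripts of KIL1 and KIL2 were not analysed here, which leaves the labels of the genotypes without a check by these genes.

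The basal transfer layer lies at the maternal side of the endosperm, where sugars enter the kernel, while the EAS lies against the embryo. In maize, mn1 (miniature1) encodes a cell wall invertase that splits incoming sucrose into hexoses outside the cell. The gene sweet4c encodes a transporter of the SWEET family that moves these hexoses into the endosperm, and mrp1 encodes a MYB-related transcription factor that activates genes of the transfer layer. Loss of mn1 or of sweet4c is known to give small or poorly filled kernels. Levels of the 3 genes therefore also bear on whether transfer layer RNA was present in the sampled tissue.

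Of the 3 genes, sweet4c was lower in the knockout, and neither mn1 nor mrp1 passed the test. The hexose transporter gene sweet4c averaged 502.7 ± 37.3 CPM in knockout libraries and 747.1 ± 74.9 CPM in wild type libraries (SD, n = 4 each), where CPM is the count scaled by library size, adjusted with TMM factors. It was 1.49-fold lower in the knockout. The invertase gene mn1 averaged 9.87 ± 4.13 CPM in knockout libraries and 11.2 ± 6.81 CPM in wild type libraries (SD, n = 4 each). The regulator gene mrp1 averaged 5.30 ± 2.78 CPM in knockout libraries and 4.59 ± 2.26 CPM in wild type libraries (SD, n = 4 each). For mn1 and mrp1 the spread between libraries of a genotype exceeded the difference between genotypes.

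**Figure D1:**
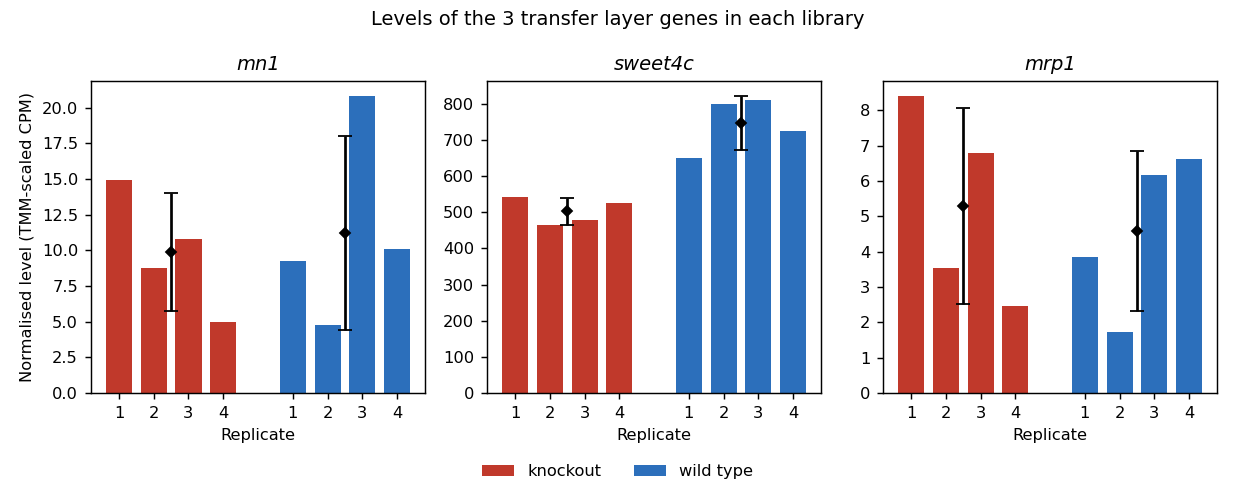
Level of each gene in each library, in TMM-scaled CPM on linear axes that start at 0, with knockout libraries in red and wild type libraries in blue. Diamonds and bars give the mean and SD of the 4 libraries. For sweet4c the highest knockout library, at 541.9 CPM, lies under the lowest wild type library, at 650.7 CPM, and for mn1 and mrp1 the genotypes overlap.

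The transporter gene sweet4c lies on chromosome 5 (133448255 to 133451922, plus strand, 5 exons) in the A188 annotation that the authors used. It had 541.9, 464.2, 478.3 and 526.3 CPM in knockout replicates 1 to 4, against 650.7, 800.8, 811.7 and 725.2 CPM in wild type replicates 1 to 4. All 4 knockout libraries were below all 4 wild type libraries. These levels rested on 24627 to 33680 counts in the knockout and 39134 to 68788 counts in wild type, so sweet4c is the best measured of the 3 genes. Without any scaling beyond the library totals, sweet4c took 0.0444% to 0.0522% of the counts of a knockout library and 0.0671% to 0.0854% of those of a wild type library.

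The log2 fold change of sweet4c was -0.57 (SE 0.079, 95% interval -0.75 to -0.40), with an adjusted p of 0.000724 in edgeR's quasi-likelihood test. In fold terms the interval runs from 1.32-fold to 1.68-fold lower in the knockout. Of the 22014 genes tested in the same fit, 18.6% passed the threshold of 0.05 on the adjusted p, 10.1% as lower and 8.51% as higher in the knockout. Of the 3 transfer layer genes 1 passed, sweet4c, as lower. Its fall was moderate among the genes that passed as lower, since 42.0% of them fell by more than sweet4c. Among all tested genes, 6.71% had a log2 fold change as low as that of sweet4c or lower. Groups without overlap, as seen for sweet4c, occurred for 23.2% of the tested genes. The median log2 fold change was -0.003 over all tested genes. Over the 3 genes it was -0.19, which is the value of mn1 alone, a gene that did not pass. When libraries were scaled by their totals instead of TMM factors, 21.5% of the tested genes fell, at a median log2 fold change of -0.12 over all genes. The value for sweet4c then was -0.69, or -0.57 relative to that median.

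The invertase gene mn1 lies on chromosome 2 (60419213 to 60422283, plus strand, 6 exons). It had 14.9, 8.79, 10.8 and 5.0 CPM in knockout replicates 1 to 4, against 9.23, 4.76, 20.8 and 10.1 CPM in wild type replicates 1 to 4. The highest and the lowest of the 8 values both came from wild type, in replicates 3 and 2, and the range of the knockout lay inside that of wild type. The log2 fold change was -0.19 (SE 0.40, 95% interval -1.07 to 0.70), with an edgeR adjusted p of 0.792 (0.647 unadjusted). The interval spans changes from 2.11-fold lower to 1.62-fold higher in the knockout, so a change of the size seen for sweet4c was neither detected nor outside what these libraries allow. The sign of the estimate rested on single libraries. It was 0.04 without knockout replicate 4 and 0.30 without wild type replicate 3, and neither estimate passed the test.

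The regulator gene mrp1 lies on chromosome 8 (131332181 to 131333425, minus strand, 2 exons). It had 8.41, 3.53, 6.80 and 2.45 CPM in knockout replicates 1 to 4, against 3.84, 1.73, 6.16 and 6.63 CPM in wild type replicates 1 to 4. The genotypes overlapped, with 2 of the 4 knockout libraries above the wild type median and 2 below it. The log2 fold change was 0.20 (SE 0.43, 95% interval -0.74 to 1.15), with an edgeR adjusted p of 0.790 (0.644 unadjusted). In fold terms this spans 1.67-fold lower to 2.22-fold higher in the knockout. Without knockout replicate 1 the estimate was -0.10, and without wild type replicate 2 it was -0.07, and neither passed the test.

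**Figure D2:**
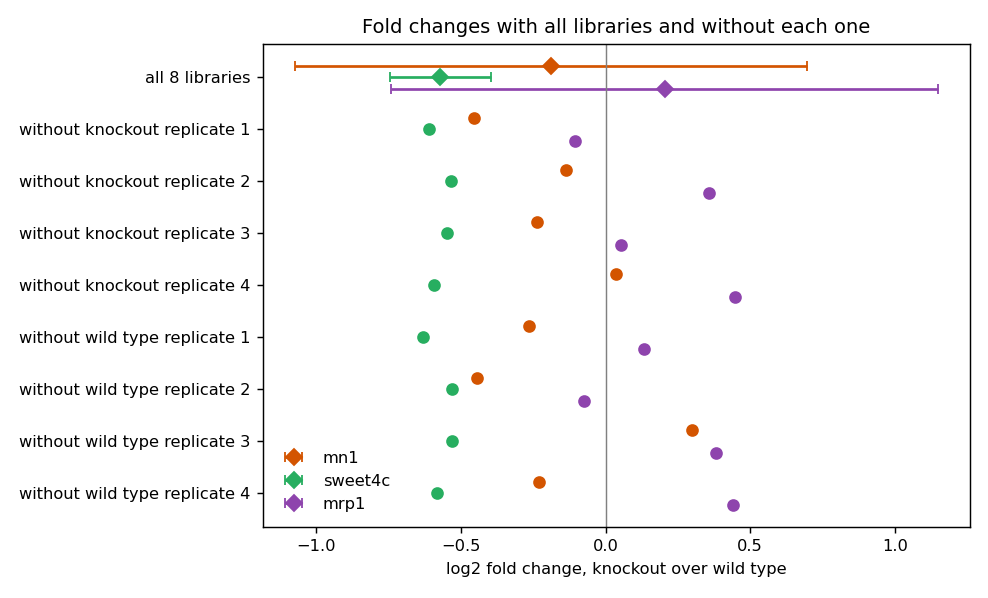
Log2 fold change of the knockout over wild type from edgeR's fit for each of the 3 genes, with all 8 libraries (diamonds, bars give the 95% interval) and without each library in turn (circles). The values for sweet4c lie between -0.63 and -0.53 without each library, while those of mn1 lie between -0.45 and 0.30 and those of mrp1 between -0.10 and 0.45.

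Whether the fold changes of the 3 genes differ from each other was tested through the ratio of 2 genes within a library, which does not depend on scaling. The log2 ratio of mn1 to sweet4c counts was -5.77 ± 0.67 in the knockout and -6.25 ± 0.87 in wild type (SD, n = 4 each), a difference of 0.47. The ratio of sweet4c to mrp1 was 6.73 ± 0.81 in the knockout and 7.51 ± 0.92 in wild type, a difference of -0.78. The ratio of mn1 to mrp1 was 0.96 ± 0.28 in the knockout and 1.27 ± 0.49 in wild type, a difference of -0.31. None of these 3 differences passed an exact two-sided permutation test over the 4 and 4 libraries (p = 0.429, 0.257 and 0.314 in that order, each 0.429 after Benjamini-Hochberg adjustment). The smallest p that 4 libraries against 4 can give is 0.0286, and a single ratio at that value would have an adjusted p of 0.0857, so 1 difference alone could not pass. The fall of sweet4c was thus not shown to differ from the changes of mn1 and mrp1.

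The 3 genes were present at very different levels. Per length, in RPKM (CPM per kilobase of exon), sweet4c averaged 429.3 ± 31.8 in the knockout and 638.0 ± 64.0 in wild type (SD, n = 4 each). At most 0.668% of the tested genes had a higher RPKM than sweet4c in any library, and by mean CPM it ranked 129 among the 22014 tested genes. The gene mn1 averaged 5.21 ± 2.18 RPKM in the knockout and 5.92 ± 3.59 RPKM in wild type, and mrp1 averaged 5.28 ± 2.77 RPKM in the knockout and 4.57 ± 2.25 RPKM in wild type (SD, n = 4 each). Both sat in the middle of the distribution: between 33.0% and 64.1% of the tested genes had a higher RPKM than mn1, and between 38.7% and 70.1% a higher RPKM than mrp1. Per length, sweet4c exceeded mrp1 in 8 of 8 libraries, by 55.3-fold to 396-fold, and exceeded mn1 by 58.8-fold to 272-fold. The levels of mn1 and mrp1 did not separate, with mn1 the higher per length in 5 of 8 libraries.

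All 3 genes were counted in every library, with at least 320 counts for mn1 and at least 149 counts for mrp1. Transcripts of genes known from the transfer layer were thus present in the EAS-enriched tissue of both genotypes. The libraries include no sample of the transfer layer alone to set these levels against, so they do not give the share of that layer in the tissue. In bulk tissue fewer cells of a type and less RNA per cell cannot be told apart. Bulk counts also do not show which cells of the sampled tissue the transcripts of each gene came from.

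Libraries of one genotype differed far more in mn1 and mrp1 than in sweet4c. The lowest and the highest library differed 2.98-fold for mn1 in the knockout and 4.37-fold in wild type. The same spread was 3.43-fold for mrp1 in the knockout and 3.82-fold in wild type, and for sweet4c it was 1.17-fold in the knockout and 1.25-fold in wild type. Expressed as the SD of log2 CPM within genotype, the spread was 0.77 for mn1, 0.85 for mrp1 and 0.13 for sweet4c, and the median over tested genes was 0.14. A spread as large as that of mn1 was found in 2.88% of the tested genes and one as large as that of mrp1 in 2.20%. The coefficient of variation of CPM was 41.9% for mn1 and 52.4% for mrp1 in the knockout, and 60.7% for mn1 and 49.3% for mrp1 in wild type. Counting error alone, in the library with the fewest counts and with both reads of every pair counted, comes to 7.91% for mn1 and 11.6% for mrp1. The biological coefficient of variation from edgeR's gene-wise dispersions, estimated before the quasi-likelihood fit, was 0.389 for mn1 and 0.417 for mrp1. The trend over genes of their level gave 0.109 and 0.146. For sweet4c the coefficient was 0.085, near the trend at 0.080.

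**Figure D3:**
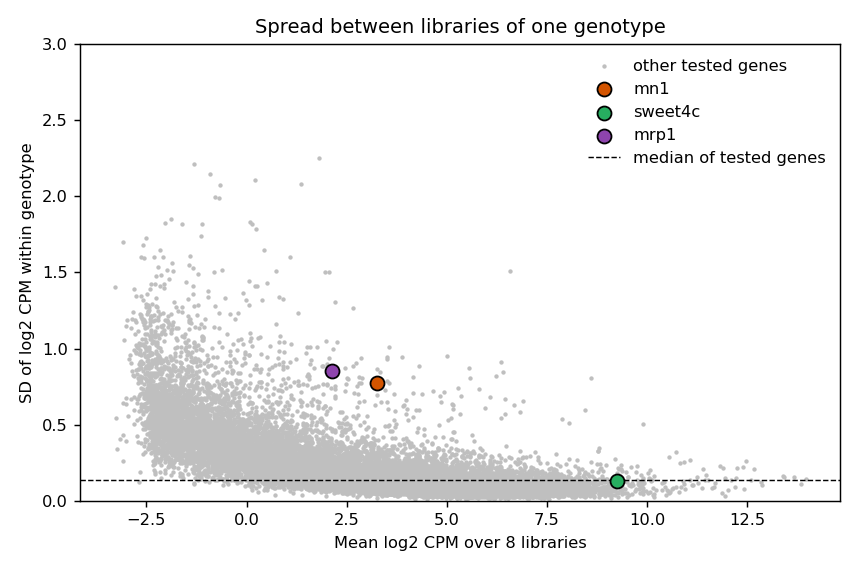
SD of log2 CPM within genotype against mean log2 CPM over the 8 libraries, one point per tested gene, with the 3 genes in colour and the median of all tested genes as a dashed line. At 0.77 and 0.85, mn1 and mrp1 lie above most genes of their level, and sweet4c lies at 0.13, near the median of 0.14.

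The libraries low in mn1 were also low in mrp1. In the knockout both were lowest in replicate 4 and highest in replicate 1, and the 4 libraries had the same order for both genes. In wild type both were lowest in replicate 2, while mn1 was highest in replicate 3 and mrp1 in replicate 4. Over the 8 libraries the log2 CPM of mn1 and mrp1 correlated with Pearson's r = 0.864 (exact permutation p = 0.00526) and Spearman's rho = 0.857 (exact permutation p = 0.0107), two-sided. After adjustment over the 3 pairs of genes the p-values were 0.0158 and 0.0321. Without wild type replicates 2 and 3, the libraries farthest from the median of mn1, r was 0.913. The relation was looked for after the counts had been seen, so these p-values describe these libraries. Within a genotype there are too few libraries for a correlation.

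The order of the libraries in sweet4c matched that of mn1 and mrp1 in part. Knockout replicate 1 was the highest of the knockout in all 3 genes, and wild type replicate 3 the highest of wild type in sweet4c and mn1. Knockout replicate 4 and wild type replicate 2, lowest of their genotype in mn1 and mrp1, had the second highest sweet4c level of theirs. In wild type replicate 2, sweet4c had 168-fold the counts of mn1, while this ratio was 39.0-fold in wild type replicate 3. Because the genotypes separate in sweet4c, its relation to mn1 and mrp1 is given on deviations from the genotype mean, as a description over the 8 libraries. Pearson's r was 0.08 and Spearman's rho 0.38 with mn1, and r was -0.04 and rho 0.26 with mrp1, where mn1 and mrp1 had r = 0.886 and rho = 0.857 on the same deviations.

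**Figure D4:**
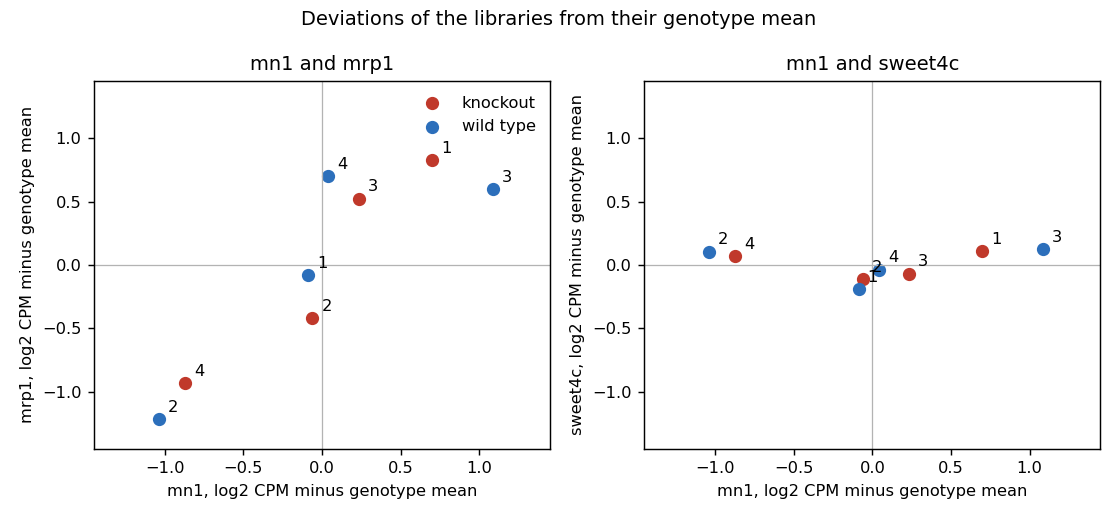
Deviation of each library from its genotype mean in log2 CPM, for mn1 against mrp1 and for mn1 against sweet4c, with replicate numbers beside the points. Knockout replicate 4 and wild type replicate 2 lie lowest in both mn1 (-0.87 and -1.04) and mrp1 (-0.94 and -1.21), while the deviations of sweet4c stay between -0.19 and 0.13.

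The libraries lowest in mn1 and mrp1 were the deepest of their genotype. The remaining libraries did not run in strict reverse order of depth, but several of them were close in depth. Knockout replicate 4 had the most counts of the knockout (65625013) and wild type replicate 2 the most of wild type (80577963), and these are the libraries lowest in both genes. The raw counts of mn1 were also lowest there, at 320 in knockout replicate 4, where the other knockout libraries had 498 to 678. In wild type replicate 2 mn1 had 409 raw counts, where the other wild type libraries had 555 to 1338. Knockout replicate 1, the shallowest of the knockout at 47143888 counts, was its highest in both genes. Knockout replicates 3 and 2 were close in depth, at 58459440 and 58191043 counts, and replicate 3 was higher in both genes. Wild type replicate 3, the second deepest of wild type at 61613873 counts, was the highest in mn1. Wild type replicate 1, the shallowest of wild type at 58330218 counts, was its second lowest in both genes. The wild type libraries other than replicate 2 were close in depth, at 58330218 to 61613873 counts. The part of depth in the levels of mn1 and mrp1 was not tested.

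The gene most like each of the 3 was searched among 16333 genes (mean log2 CPM of 1 or more), by the Pearson correlation of log2 CPM over the 8 libraries. The gene most like mn1 was Zm00001d048633 on chromosome 4 (1577214 to 1577724, r = 0.974), at 71.5 to 183.7 CPM over the knockout libraries and 67.7 to 217.1 CPM over the wild type libraries. The gene most like mrp1 was Zm00001d045162 on chromosome 9 (r = 0.985), and like mn1 and mrp1 these 2 genes did not pass the test (edgeR adjusted p = 0.783 for Zm00001d048633 and 0.733 for Zm00001d045162). The gene most like sweet4c was Zm00001d019627 on chromosome 7 (r = 0.980), which was also lower in the knockout (log2 fold change -0.43, edgeR adjusted p = 0.008). These IDs are not paired with names in the sources used here, and the highest of 16333 correlations over 8 libraries is high by selection. For sweet4c this correlation includes the difference between the genotypes, so a fall of Zm00001d019627 follows from how it was chosen. The same holds for the 2 genes that did not pass, and none of these calls is a separate result. Of the 16333 genes 60 (0.367%) were more like mn1 than mrp1 was.

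No other gene model overlapped any of the 3 genes, so counting without regard to strand did not mix them with a neighbour in this annotation. The nearest gene models lay 15227 to 352711 bases away. Of these 6 neighbours 2 were expressed enough to be tested, one beside sweet4c and one beside mrp1. The neighbour of sweet4c had a log2 fold change of 0.21 (edgeR adjusted p = 0.734), and that of mrp1 had 0.04 (edgeR adjusted p = 0.775).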

How the data were processed

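Trimmomatic 0.39 and HISAT2 are named in the submitters' processing notes. The deposited values are raw counts of reads per gene, made by the authors with featureCounts 2.0.1 and an A188 annotation, per the file headers. The recorded command sets nothing for strand, mates or multi-mapping reads, so strand was ignored, mates were counted separately and reads with several alignments were left out, which makes counts of near-identical copies uncertain. The deposited table also gives exon lengths, used for RPKM. None of its IDs was paired with a name (0 matched the 49888 genes of the reference table), so the 3 names rest on the IDs alone, and markers planned by symbol for the transfer layer and for aleurone, starchy endosperm, embryo and pericarp were not analysed here.

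Genes kept by filterByExpr (22014) were scaled by TMM and tested with edgeR 4.0.16 in R 4.3.3, with Benjamini-Hochberg adjustment over all of them and a threshold of 0.05. Standard errors and 95% intervals came from the F statistic, and the calls of the edgeR test were checked on simulated counts. Log2 CPM used a prior count of 2, and ratios of 2 genes added 0.5 to each count. Alternatives were DESeq2 1.42.0, limma-voom (limma 3.58.1), other scalings and filters, each library left out and a replicate block. Genes named were the 3 members and the gene most correlated with each. Members, lists and tests were chosen with earlier results of these data known.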

Additional observations from a re-analysis of the deposited data

Results flagged for a closer look

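Among 14 sets of 4 values (the CPM of each gene, the 3 ratios and the library totals, by genotype) 1 held a library far from the rest, a finding that chance alone produces in about 1 of 20 sets. The total of wild type replicate 2 was 80577963 counts, and the totals of the remaining wild type libraries were 58330218 to 61613873. Without this library the log2 fold change was -0.53 for sweet4c (-0.57 with it), -0.44 for mn1 (-0.19 with it) and -0.07 for mrp1 (0.20 with it). The difference in the log2 ratio of mn1 to sweet4c was 0.09 (0.47 with it), and 2783 genes changed (4086 with it).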

How the results depend on the processing

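The fall of sweet4c kept its direction and its adjusted p below 0.05 in all 16 alternatives, at log2 fold changes of -0.69 to -0.55 in the 8 that kept all libraries and -0.63 to -0.53 without each library. Neither mn1 nor mrp1 passed in any of the 16. In the alternatives with all libraries mn1 stayed between -0.31 and -0.09 and mrp1 between 0.09 and 0.24. Leaving out each library gave -0.45 to 0.30 for mn1 and -0.10 to 0.45 for mrp1, with a turned sign in 2 of 8 cases for each. The differences in log2 ratio kept their sign. That none passed says little, since 4 pairs under the replicate block allow no exact sign-flip p below 0.125 and a single ratio none below 0.0857 after adjustment. Without each library they were 0.09 to 0.79 for mn1 to sweet4c, -0.53 to -0.15 for mn1 to mrp1 and -1.12 to -0.34 for sweet4c to mrp1. The number of changed genes over the whole table was 4086, and 2783 to 5775 in the alternatives. With library totals 1032 genes rose and 4743 fell, against 1873 and 2213 with TMM, and with upper quartile factors 2229 rose and 2000 fell. With the replicate number as a block 3000 genes changed, sweet4c was at -0.57 (edgeR adjusted p = 0.008), and no call on the 3 genes changed. The deviations of same-numbered libraries from their genotype mean had correlations of 0.101, 0.103, -0.049 and -0.126, so the numbers are not taken to pair the libraries, and for 2 of 8 libraries the same-numbered one was the best match. Of the 3 genes mrp1 had the fewest counts, with 149 in its lowest library, wild type replicate 2, which was the deepest library. The spread between libraries limits both mn1 and mrp1.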

Other observations

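Genes with a correlation of at least 0.9 over the 8 libraries numbered 17 for mn1, 80 for mrp1 and 437 for sweet4c, among the 16333 genes compared. Of these, 11 were shared by mn1 and mrp1, which is 64.7% of the genes like mn1 and 13.8% of those like mrp1, and 0 were shared by sweet4c with either. The overlap follows in part from the correlation of mn1 with mrp1. Over the 8 libraries sweet4c had r = 0.097 with mn1 and r = -0.148 with mrp1. At such values no gene can reach 0.9 with both sweet4c and mn1, or with both sweet4c and mrp1. The 0 is therefore fixed by these correlations and is not a separate result. The mean levels of the 11 ran from 3.23 to 128.7 CPM with a median of 7.77 CPM. How these genes compare between genotypes or order the libraries is fixed by how they were chosen and is not a separate result. For sweet4c the correlation includes the difference between the genotypes. Of its 437 genes 408 passed edgeR's test as lower in the knockout, where 10.1% of all tested genes did. This too follows from how they were chosen.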
